A study of Mus musculus with 6 samples.

Results

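The genes described here encode the signalling steps that lie below acetylcholine receptors, namely heterotrimeric G proteins, the enzymes that make and remove second messengers, the kinases that respond to them, the PI3K and AKT kinases and the MAP kinase cascade. Members were chosen by gene name, as protein-coding rows whose symbol begins with a prefix of one of these families, and 72 of the 4195 listed genes qualified. The values come from KYSE30, an established line of human esophageal squamous carcinoma cells, labelled WT and grown in medium with serum. The labels name the mouse as the organism, but the gene identifiers are human. The 3 Control libraries (K1 to K3) were compared with 3 libraries of cells given 100 uM acetylcholine (ACh; KA1001 to KA1003), all labelled 4 h. The labels describe no receptor blocker, other dose or other time. The deposited table holds only genes with an unadjusted p under 0.05 in the authors' own test, so genes of these families without a row were not analysed here.

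Acetylcholine acts on nicotinic receptors, which are ion channels, and on muscarinic receptors, which couple to G proteins. Some muscarinic receptors use Gq and G11, which activate phospholipase C beta. That enzyme splits a membrane lipid into inositol trisphosphate, which releases calcium, and diacylglycerol, which activates protein kinase C. Others use Gi, which lowers cyclic AMP and thereby the activity of protein kinase A. Both routes can reach the MAP kinase cascade and the PI3K and AKT kinases. Much of this signalling works by protein modification, and transcript levels do not report on pathway activity.

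Each library held between 9420144 and 14453391 reads in the listed genes, recovered from the deposited values, and every ACh library held fewer than every Control library. Across the table, direction in ACh followed base composition. GC content was that of the mouse gene sharing the symbol, and its Spearman correlation with the log2 fold change over 3676 genes was -0.76. Results are therefore given with and without the GC trend of each library, since its part in them was not tested. Of 12 squamous and epithelial marker genes 6 were listed, of which TP63 rose by 0.23 on the log2 scale and KRT8, SOX2, KRT15 and KRT18 fell by 0.13 to 0.29. The Control and ACh values of KRT15 overlapped. DSG3, also listed, had a log2 fold change of 0.12 without overlap and did not pass. With the GC trend removed SOX2 stayed lower at -0.20, and KRT8, KRT15, KRT18 and DSG3 stood at -0.075, 0.0053, 0.068 and -0.072 without a call. TP63 had no GC value. Of 11 markers of other cell types COL1A1 alone was listed, at a mean of 177 normalised reads in Control, and it did not pass the tests. Nothing in the labels says that replicates were separate cultures, so p-values measure only the spread between these libraries, which may be technical. In bulk RNA a change in the number of cells of a kind and a change in RNA per cell cannot be told apart.

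Of the 72 members, 31 rose, 20 fell and 21 did not pass. Here "rose" and "fell" are used for genes with a limma adjusted p under 0.05 and also an adjusted p under 0.05 in the authors' deposited table. Of all listed genes 28.8% were called higher and 35.0% lower by this rule, against 43.1% and 27.8% of the members. That balance depends on scaling. With libraries brought to equal totals over the listed genes 1207 listed genes were called higher and 990 lower, in place of 1207 and 1470, and among all called genes the share that was higher went from 45.1% to 54.9% of listed genes and from 60.8% to 64.6% of members. Limma alone passed 70 of the members and 4178 of the listed genes, the table having been selected for a difference. The rows were selected with the same libraries that limma then tested. Limma adjusted p values here are therefore no false discovery rates, and they and the intervals tend to be too favourable. The median log2 fold change of the members was 0.14, against -0.098 over all listed genes. The values were 0.22 and -0.018 with equal totals, and 0.021 and 0.0088 with the GC trend removed. Their changes were small, with a median size of 1.15-fold, and 50 of the 51 members that passed changed by less than 1.5-fold. The exception was GNG5. Over all listed genes the median size was 1.15-fold as well, and 2642 of the 2677 that passed changed by less than 1.5-fold. The 3 ACh values lay wholly above the 3 Control values for 40 members and wholly below them for 27, where 44.6% and 48.3% of all listed genes did so.

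**Figure D1:**
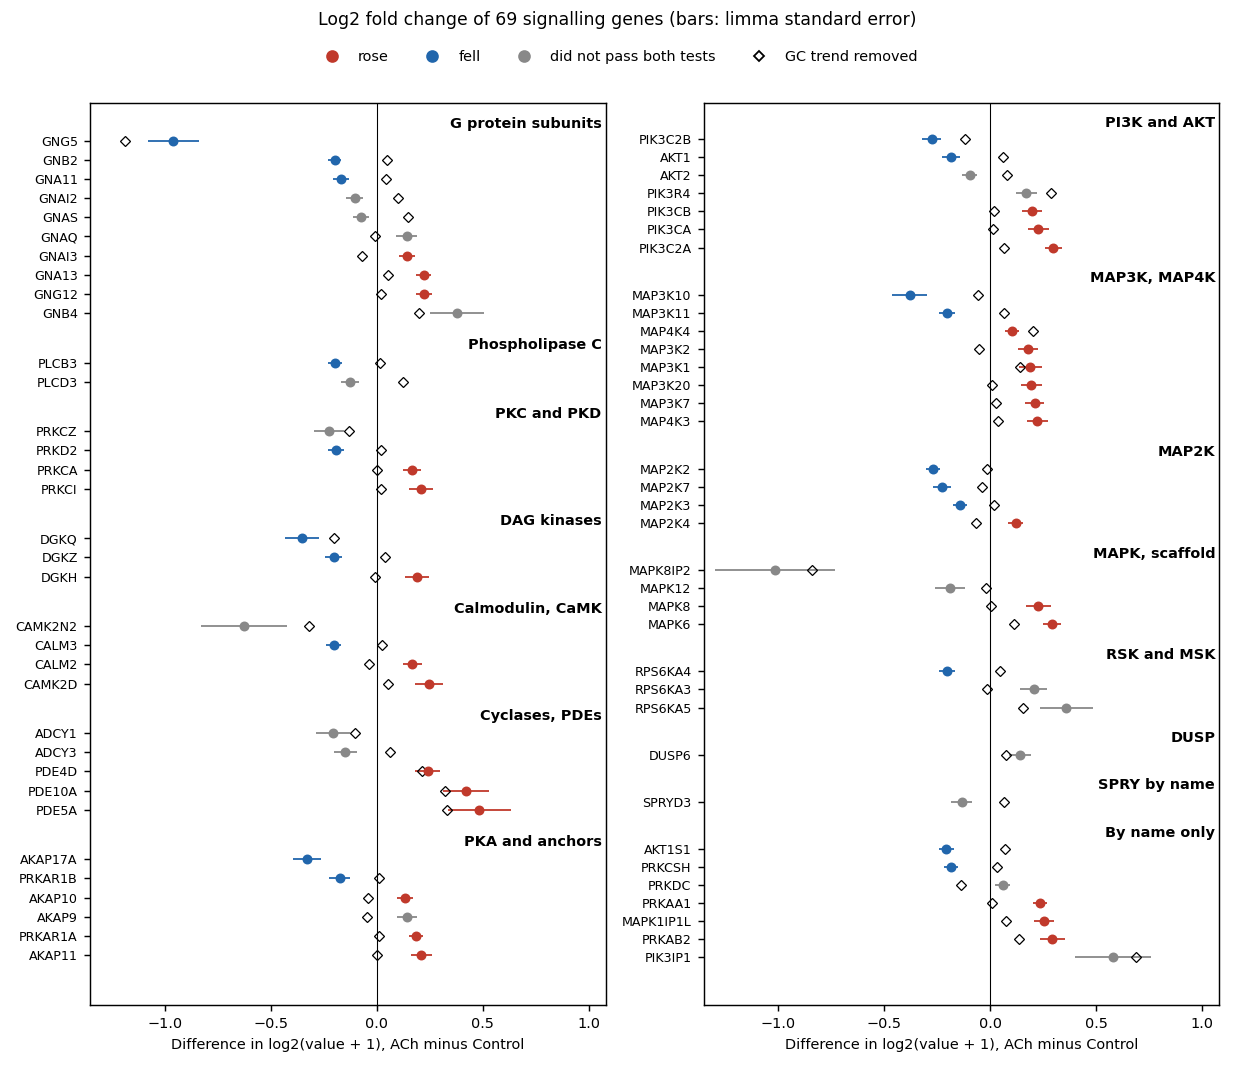
Log2 fold changes of 69 of the 72 members by pathway step (x axis: difference of group means of log2(value + 1), ACh minus Control; bars: limma standard error; 3 libraries per group). Red members rose, blue ones fell and grey ones did not pass both tests, and open diamonds give the value after removal of the GC trend, which lies nearer to 0 for most members but not for GNG5, GNAS, MAP4K4, PRKDC, PIK3R4 or PIK3IP1.

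After the GC trend was taken out of each library, 8 members passed limma as higher and 3 as lower, against 7.67% and 8.95% of the 3676 listed genes with a GC value. Of the 50 members that had passed both tests and had a GC value, 5 kept the call, 24 lost it with the sign kept and 21 changed sign without passing. The 5 were PDE4D, PDE10A, MAP4K4 and MAPK6, which were higher, and GNG5, which was lower. Of 2460 such listed genes 329 kept the call, 1169 lost it with the sign kept and 962 changed sign, of which 65 passed. The median size of a member's log2 change went from 0.20 to 0.057, and that of all listed genes from 0.21 to 0.060. The removal rests on mouse sequence, and no human sequence was used here. The trend was fitted only over listed genes, all selected for a difference between the groups. Its removal can therefore also take out part of that difference. Passing limma after removal rests on an adjusted p over these selected rows, which cannot be read as a false discovery rate.

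Among the 10 listed G protein subunits 3 rose, 3 fell and 4 did not pass. GNG5, a gamma subunit (ENSG00000174021, chromosome 1 from 84498325 to 84506565 in the file's coordinates), showed the largest change of any member that passed. The 6 libraries gave normalised counts of 244, 310.5 and 326 in Control and 146, 169 and 135 in ACh. Every ACh library lay below every Control library, and the mean went from 293 ± 43.5 to 149.9 ± 17.1 (SD, n = 3). On the log2 scale it fell by 0.96 (standard error 0.12, limma adjusted p = 4.05e-06). Its GC content of 39.4% was among the low ones, and with the GC trend removed the fall was larger, at -1.19. It rests on a low count.

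Of the alpha subunits of the Gq class GNA11 and GNAQ were listed. GNA11 (ENSG00000088256, chromosome 19 from 3094410 to 3124004) had normalised counts of 2367, 2419.9 and 2485 in Control and 2149, 2106 and 2221 in ACh. It fell by 0.17 on the log2 scale (limma adjusted p = 0.000628), without overlap of the groups, though it did not pass when libraries were scaled to equal totals over the listed genes (limma adjusted p = 0.0534). GNAQ, its close relative, had 976, 926 and 996 in Control and 1062, 1093 and 1044 in ACh. These groups did not overlap either, but the authors' deposited table gave GNAQ an adjusted p of 0.109, so it did not pass. Its log2 fold change was 0.14 (95% interval 0.039 to 0.25). The Gi subunit gene GNAI3 had 2535, 2449 and 2478 in Control and 2806, 2826 and 2618 in ACh and rose by 0.14, and it overlaps AMPD2, listed on the same strand. GNAI2, another Gi subunit, had 2300.0, 2283 and 2132 in Control and 2155, 2064 and 2031 in ACh, where the groups overlapped and the log2 fold change of -0.10 did not pass.

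GNAS, which encodes the stimulatory alpha subunit that activates adenylyl cyclase, had 12999, 13891 and 13539 in Control and 13379, 12638 and 12378 in ACh. Its groups overlapped, with the first ACh library among the Control values, and its log2 fold change was -0.075 (95% interval -0.15 to 0.0016), or 0.0053 with equal totals. GNA13, an alpha subunit of the G12 class, had 2395, 2341 and 2386 in Control and 2799, 2800.2 and 2705 in ACh and rose by 0.22 (limma adjusted p = 3.42e-05). All 3 ACh libraries were above the Control libraries by a wide margin relative to their spread. The gamma subunit gene GNG12 had 3152, 2919 and 2929.9 in Control and 3398, 3546 and 3566 in ACh and rose by 0.22, while the beta subunit gene GNB2 had 5199, 5363 and 5230.2 in Control and 4584, 4618 and 4571 in ACh and fell by 0.20. GNB4, a beta subunit gene at 104 normalised reads in Control, had a log2 fold change of 0.38 and did not pass.

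Per kilobase of the deposited gene length, the Control level was 1843 ± 30.6 normalised reads for GNB2, 1012 ± 33.7 for GNAS, 635 ± 27.8 for GNG12 and 465 ± 5.68 for GNA13 (SD, n = 3). It was 388 ± 9.49 for GNA11, 293 ± 12.1 for GNAI2, 264 ± 39.1 for GNG5, 146 ± 5.4 for GNAQ, 91.5 ± 1.6 for GNAI3 and 14.8 ± 1.32 for GNB4. Neighbours in this order were apart by more than their SDs except GNAI2 and GNG5. In ACh the order was the same save that GNG5, at 135 ± 15.3, lay below GNAQ, at 161 ± 3.75. After removal of the GC trend the log2 changes of GNA11, GNAQ, GNAI3, GNA13, GNG12 and GNB2 were 0.046, -0.0087, -0.067, 0.055, 0.021 and 0.049, none past limma. On that scale GNAS stood at 0.15 and passed limma in the direction opposite to its deposited mean difference (adjusted p = 0.00389).

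**Figure D2:**
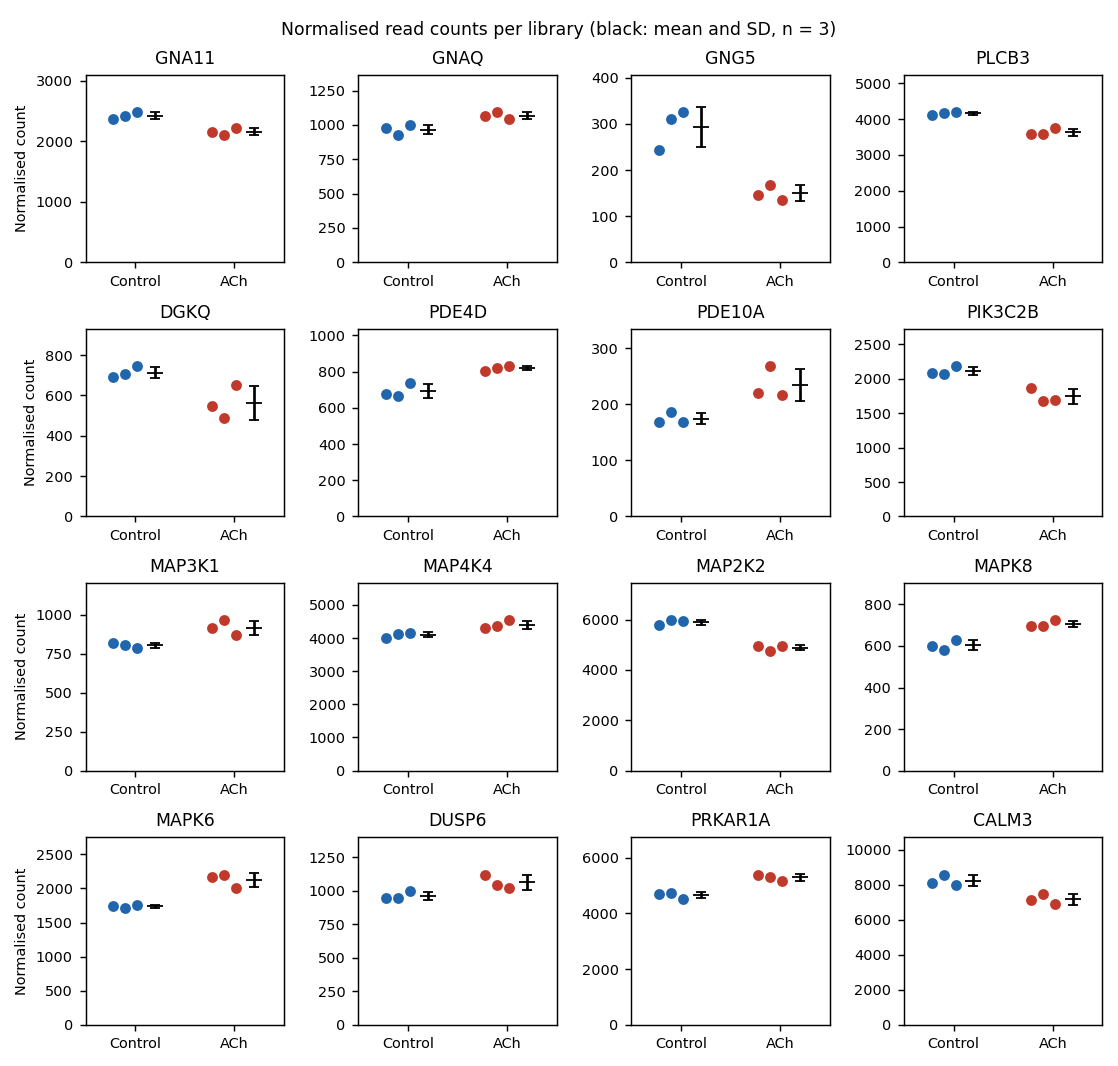
Normalised read counts of 16 members in each library (y axis: normalised read count, from 0; blue: Control, red: ACh; black: mean and SD, n = 3). The groups are separate in each panel, and the distance between them is small against the level except for GNG5, where the means were 293 in Control and 149.9 in ACh.

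Below Gq, 1 of the 5 listed phospholipase C and diacylglycerol kinase genes rose, 3 fell and 1 did not pass. PLCB3, the phospholipase C beta gene in the table (ENSG00000149782, chromosome 11 from 64251523 to 64269150), had 4123, 4165 and 4199 in Control and 3584, 3579.8 and 3744 in ACh. It fell by 0.20 on the log2 scale (limma adjusted p = 6.28e-05), and the Control values lay within a narrow range. PLCD3, a delta isoform, had a log2 fold change of -0.13 (95% interval -0.22 to -0.035) and did not pass. Diacylglycerol kinases remove diacylglycerol by turning it into phosphatidic acid. DGKQ had 690.0, 704 and 745 in Control and 550.1, 487 and 651 in ACh and fell by 0.35, with the third ACh library nearest to the Control values. DGKZ had 2541, 2786 and 2664 in Control and 2265, 2290.0 and 2382 in ACh and fell by 0.20. DGKH had 757, 731 and 714 in Control and 795, 853 and 863 in ACh and rose by 0.19, and each of these 3 genes had separate groups.

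Protein kinase C genes differed by member. PRKCA, a kinase that answers to calcium and diacylglycerol, had 1636, 1593 and 1586 in Control and 1707, 1827 and 1875 in ACh and rose by 0.17. PRKCI, an atypical kinase that needs neither, had 709.7, 691 and 756 in Control and 842, 843 and 807 in ACh and rose by 0.21. PRKD2, a protein kinase D that acts below protein kinase C, had 1952, 1981 and 1944 in Control and 1736, 1680.1 and 1736 in ACh and fell by 0.19. In all 3 the groups were separate, and the limma adjusted p values were 0.00172, 0.00268 and 0.000282. PRKCZ, a second atypical kinase, had a log2 fold change of -0.23, and the authors' deposited table gave it an adjusted p of 0.0616. It overlaps FAAP20 on the opposite strand, as PLCD3 overlaps NMT1.

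Calmodulin, the calcium sensor that activates CaM kinases and calcineurin, is encoded by several genes for the same protein. CALM3, with the highest level per kilobase of all members (2248 ± 83.3 in Control, SD, n = 3), had 8131, 8588 and 8009 in Control and 7106, 7497 and 6886 in ACh. CALM2 had 6702, 6742 and 6086 in Control and 7373, 7846 and 6748 in ACh. CALM3 fell by 0.20 and CALM2 rose by 0.17 on the log2 scale, each without overlap, though the third ACh library of CALM2 lay only just above the highest Control library. How reads shared with calmodulin pseudogenes were assigned is not given, so the value of CALM2 is uncertain. CAMK2D, a CaM kinase II gene, had 687, 627 and 573 in Control and 719.5, 776 and 738 in ACh and rose by 0.25. CAMK2N2, which encodes an inhibitor of that kinase, had 52.3, 75.1 and 49.9 in Control and 33.2, 36.2 and 43 in ACh with a log2 fold change of -0.63. It did not pass because the authors' deposited table gave it an adjusted p of 1, which may stand for a missing value. The unadjusted p of the authors' test was 0.0311.

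Over these 14 genes from phospholipase C to calmodulin, 5 rose, 5 fell and 4 did not pass. Free of the GC trend, PLCB3 stood at 0.015, DGKZ at 0.039, DGKH at -0.0094, PRKCA at 0.0015, PRKCI at 0.021, PRKD2 at 0.021, CALM3 at 0.027, CALM2 at -0.035 and CAMK2D at 0.053. None of these values passed limma. DGKQ kept its sign at -0.20 (adjusted p = 0.0696), and passed only with the replicate number as a block (adjusted p = 0.0259). PLCD3 passed as higher, at 0.12 (adjusted p = 0.0351), against its lower deposited mean. No row for an inositol trisphosphate receptor, a calcineurin subunit or an RGS protein, which speeds the shut-off of G proteins, was among the members, and those genes were not analysed here.

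In the cyclic nucleotide step the listed phosphodiesterases rose and the listed adenylyl cyclases did not pass. Phosphodiesterases break down cyclic AMP or cyclic GMP. PDE4D, specific for cyclic AMP (ENSG00000113448, chromosome 5 from 58969038 to 60522120), had 674, 667 and 740.2 in Control and 806, 819 and 830.1 in ACh. PDE10A, which cleaves both nucleotides (ENSG00000112541, chromosome 6 from 165327287 to 165988078), had 169, 187 and 169 in Control and 221, 268 and 217 in ACh. PDE5A, specific for cyclic GMP, had 108, 116 and 86 in Control and 169, 147 and 118 in ACh. Each ACh library was above each Control library for all 3 genes, with the second ACh library of PDE10A and the first of PDE5A standing highest.

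PDE4D rose by 0.24 on the log2 scale (standard error 0.058, limma adjusted p = 0.00126), PDE10A by 0.42 (0.11, 0.0019) and PDE5A by 0.48 (0.15, 0.00557). PDE5A was among the larger rises of the members and also among the least precise, at 103 normalised reads in Control. Without the GC trend PDE4D stayed at 0.21 (adjusted p = 0.0103) and PDE10A at 0.32 (adjusted p = 0.0337), and PDE5A, at 0.33, no longer passed (adjusted p = 0.119). An antisense transcript listed within PDE4D was lower in ACh in the authors' deposited table, at means of 6.38 and 1.11, far below the level of PDE4D. ADCY1 had 681, 612 and 707 in Control and 536, 535 and 667 in ACh, where the third ACh library lay among the Control values. Its log2 fold change was -0.21 (95% interval -0.37 to -0.042), and that of ADCY3 was -0.15 (95% interval -0.26 to -0.037).

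Protein kinase A is held inactive by regulatory subunits until cyclic AMP binds them. PRKAR1A had 4702, 4721 and 4522 in Control and 5393, 5319 and 5162 in ACh and rose by 0.19. PRKAR1B had 1242, 1243 and 1253 in Control and 1056, 1187 and 1075 in ACh and fell by 0.17, but did not pass with equal totals (limma adjusted p = 0.102). The groups of both genes were separate, and no catalytic subunit was among the members. Anchoring proteins tie the kinase to places in the cell. AKAP11 had 1056, 1022 and 1094 in Control and 1147, 1260.4 and 1264 in ACh and rose by 0.21. AKAP10 had 1707, 1763 and 1745 in Control and 1871, 1952 and 1892 in ACh and rose by 0.13, while AKAP9 was at 0.14 and did not pass. AKAP17A, an anchoring protein also known for a part in splicing, had 559.7, 589.5 and 596 in Control and 444, 471 and 476 in ACh and fell by 0.33, with separate groups.

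Once the GC trend was removed, PRKAR1A and PRKAR1B stood at 0.0097 and 0.012, and AKAP10 and AKAP11 at -0.041 and -3.42e-05, all without a call. AKAP17A had no GC value. PRKAR1B overlaps DNAAF5, a listed gene on the opposite strand that was also lower in the authors' deposited table.

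Of the 8 listed PI3K and AKT genes 4 rose, 2 fell and 2 did not pass. PIK3CA, a catalytic subunit of class I PI3K, had 864, 896 and 901 in Control and 1028, 1057 and 1027 in ACh. It rose by 0.23 on the log2 scale, and PIK3CB, another catalytic subunit, by 0.19, both without overlap of the groups. The class II gene PIK3C2A had 1339.5, 1349 and 1387 in Control and 1665, 1696 and 1647 in ACh and rose by 0.30 (limma adjusted p = 9.88e-06). PIK3C2B, of the same class, had 2086, 2066 and 2181 in Control and 1866, 1674 and 1692 in ACh and fell by 0.28 (limma adjusted p = 3.77e-05). These were the largest rise and the largest fall of the step and lay in genes of 1 class.

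Of the AKT kinases, which act below PI3K, AKT1 had 2137, 2249 and 2164 in Control and 1808, 1951 and 2001 in ACh and fell by 0.19. AKT2 had 4447, 4574 and 4388 in Control and 3999.8, 4121 and 4415 in ACh, where the third ACh value lay within the Control range, and its log2 fold change of -0.098 did not pass. Per kilobase the Control level of AKT2 was 297 ± 6.33 and that of AKT1 196 ± 5.25 (SD, n = 3), so the gene that fell had the lower level. PIK3R4, a regulatory subunit of class III PI3K, had 858, 861 and 911 in Control and 959.7, 988 and 1011 in ACh with separate groups and a log2 fold change of 0.17. The authors' deposited table gave PIK3R4 an adjusted p of 0.0582, so it did not pass. Without the GC trend it was higher by 0.28 and passed limma (adjusted p = 0.000217). PIK3C2B then stood at -0.12 and passed only with the replicate block (adjusted p = 0.0566 without the block and 0.0297 with it). PIK3CA, PIK3CB, PIK3C2A and AKT1 lay at 0.011, 0.018, 0.066 and 0.057 without a call.

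The MAP kinase cascade runs from MAP4K and MAP3K kinases through MAP2K kinases to the MAP kinases. All 8 listed MAP3K and MAP4K genes passed, 6 rising and 2 falling. MAP4K3 had 862, 830.0 and 875 in Control and 993, 1023 and 978 in ACh and rose by 0.22. MAP3K7, the kinase known as TAK1, had 1246, 1225 and 1160.2 in Control and 1411, 1409 and 1377 in ACh and rose by 0.21. MAP3K20, a stress kinase also called ZAK, had 939, 915 and 909.8 in Control and 1033, 1035 and 1091 in ACh and rose by 0.19. The groups of these 3 genes were separate, as were those of MAP3K1, MAP3K2 and MAP4K4, which rose by 0.19, 0.18 and 0.10. The other 2 fell. MAP3K10 had 629, 682 and 644 in Control and 438, 496 and 575 in ACh and fell by 0.38, with the third ACh library highest. MAP3K11 had 3225, 3448 and 3254 in Control and 2961, 2782 and 2873 in ACh and fell by 0.20.

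MAP4K4 (ENSG00000071054, chromosome 2 from 101696850 to 101894689) was the member of this step that passed limma with the GC trend removed. It had 4011, 4139 and 4155 in Control and 4303, 4379 and 4535 in ACh, with separate groups, and its small log2 rise of 0.10 became 0.20 (adjusted p = 5.05e-05). MAP3K1 stood at 0.14 (adjusted p = 0.0735, and 0.0464 with the replicate block), and the other 6 genes of this step lay between -0.057 and 0.064 without a call.

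Among MAP2K genes 3 fell and 1 rose. MAP2K2, which activates ERK kinases, had 5788, 5966 and 5938 in Control and 4936, 4756 and 4966 in ACh. It fell by 0.27 on the log2 scale (limma adjusted p = 2.4e-06). MAP2K7, which activates JNK kinases, had 1509, 1513 and 1547 in Control and 1265, 1282 and 1358 in ACh and fell by 0.23. MAP2K3, which activates p38 kinases, had 4502, 4651 and 4495 in Control and 3987, 4124 and 4234 in ACh and fell by 0.14, but did not pass with equal totals (limma adjusted p = 0.0884). MAP2K4, another JNK activator, had 2703, 2856 and 2766 in Control and 3019, 3027 and 2992 in ACh and rose by 0.12. The groups of all 4 genes were separate, and after removal of the GC trend their log2 changes were -0.018, -0.039, 0.016 and -0.066, with no call.

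Of the 5 listed MAP kinase and scaffold genes 3 rose and 2 did not pass. MAPK8, which encodes JNK1, had 600.2, 581 and 628 in Control and 698, 695 and 723 in ACh and rose by 0.23. MAPK6, an atypical MAP kinase known as ERK3 (ENSG00000069956, chromosome 15 from 51952106 to 52067372), had 1736, 1718 and 1757 in Control and 2168, 2204 and 2005 in ACh and rose by 0.29 (standard error 0.041, limma adjusted p = 1.35e-05). Both had separate groups, with the wider margin for MAPK6. MAPK12, a p38 kinase, had a log2 fold change of -0.19 and did not pass. MAPK8IP2, a scaffold for JNK kinases, had 20.7, 28.4 and 22.3 in Control and 11.8, 12.4 and 9.43 in ACh, the lowest Control level per kilobase of any member (4.03 ± 0.689, SD, n = 3), and its log2 fold change of -1.02 rests on few reads. Free of the GC trend, MAPK6 kept its call at 0.11 (adjusted p = 0.0438), and MAPK8 stood at 0.0007. MAPK8IP2 then passed limma at -0.84 (adjusted p = 0.0322).

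Kinases of the RSK and MSK family act below ERK and p38. RPS6KA4, an MSK gene, had 4387, 4723 and 4259.8 in Control and 3783, 4016 and 3789 in ACh and fell by 0.21 (limma adjusted p = 0.000168). RPS6KA5, its MSK relative, and RPS6KA3, an RSK gene, had log2 fold changes of 0.36 and 0.20 with separate groups, but adjusted p values of 0.1 and 0.0552 in the authors' deposited table kept both from passing. Without the GC trend RPS6KA4, RPS6KA5 and RPS6KA3 stood at 0.048, 0.15 and -0.017. DUSP6, a phosphatase for ERK whose gene is a known target of ERK signalling, was the only DUSP member. It had 945, 943 and 999 in Control and 1121, 1044 and 1019 in ACh. The first ACh library was the highest and the third lay just above the Control range. Its log2 fold change of 0.14 (95% interval 0.033 to 0.25) did not pass, its adjusted p being 0.122 in the authors' deposited table, and was 0.075 with the GC trend removed. No Sprouty or SPRED gene was among the members. SPRYD3, which matched by name, carries a SPRY domain and is no Sprouty protein, and its log2 fold change of -0.14 did not pass.

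A further 7 members share a prefix with these families but belong to other steps. PRKAB2, a subunit of the energy sensor AMPK, had 645, 620.0 and 689 in Control and 802, 778 and 810.2 in ACh and rose by 0.29 on the log2 scale. PRKAA1, its catalytic subunit, had 3604, 3492 and 3398 in Control and 4054, 4187 and 4097 in ACh and rose by 0.23. MAPK1IP1L had 1285, 1277 and 1319.8 in Control and 1560.2, 1631 and 1440.1 in ACh and rose by 0.25. All 3 had separate groups. AKT1S1, an AKT substrate that restrains mTOR, had 2646, 2602 and 2691 in Control and 2327, 2230.0 and 2316 in ACh and fell by 0.21. It overlaps TBC1D17 on the opposite strand, which was also lower in the authors' deposited table. PRKCSH, a glucosidase subunit of the endoplasmic reticulum, had 5819, 5947 and 6175 in Control and 5423, 5218 and 5147 in ACh and fell by 0.18. PRKDC, the catalytic subunit of the DNA-dependent protein kinase, had a log2 fold change of 0.059 (95% interval -0.014 to 0.13) and did not pass. PIK3IP1, an inhibitor of PI3K, had 74, 45.7 and 58.4 in Control and 98.7, 88.2 and 76.5 in ACh and a log2 fold change of 0.58. The groups of PIK3IP1 were separate, but its adjusted p was 1 in the authors' deposited table, which may stand for a missing value. Without the GC trend PIK3IP1 stood at 0.69 (limma adjusted p = 0.0072) and PRKDC at -0.14 (0.00711), while the 5 that had passed both tests lost their calls.

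Relatives within a family can be compared as a ratio within each library, which needs no scaling between libraries. The pairs below were chosen after their values were seen, each with the gene of higher log2 fold change first, so the direction is set by the choice and no test is given. Separation of the ratios was favoured as well, since 93.0% of all listed genes had separate groups. Other pairs were not computed. For CALM2 over CALM3, per length, the ratio was 0.448 ± 0.018 in Control and 0.579 ± 0.021 in ACh (SD, n = 3). For PIK3C2A over PIK3C2B it was 0.658 ± 0.0091 in Control and 0.981 ± 0.063 in ACh (SD, n = 3). Both ratios were separate between the groups. For PRKAR1A over PRKAR1B it was 2.46 ± 0.07 in Control and 3.16 ± 0.21 in ACh (SD, n = 3), and for GNAQ over GNA11 0.375 ± 0.014 in Control and 0.466 ± 0.023 in ACh (SD, n = 3). For MAP2K4 over MAP2K7 it was 1.64 ± 0.051 in Control and 2.09 ± 0.089 in ACh (SD, n = 3). Over the 10 pairs plotted the ratio changed by 1.19-fold to 2.26-fold, the latter for GNG12 over GNG5, and the ACh libraries lay above the Control libraries in all 10. In 9 of the 10 the first gene had the lower GC content, GNG12 over GNG5 being the exception. The ratios were not computed with the GC trend removed. With it removed, the log2 changes of CALM2 and CALM3 were -0.035 and 0.027, and those of GNAQ and GNA11 -0.0087 and 0.046. PRKAR1A and PRKAR1B stood at 0.0097 and 0.012, and MAP2K4 and MAP2K7 at -0.066 and -0.039. In these pairs, GNAI3 over GNAI2 and DGKH over DGKZ the first gene then had the lower value. It kept the higher value in PIK3C2A over PIK3C2B (0.066 and -0.12) and the remaining pairs.

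**Figure D3:**
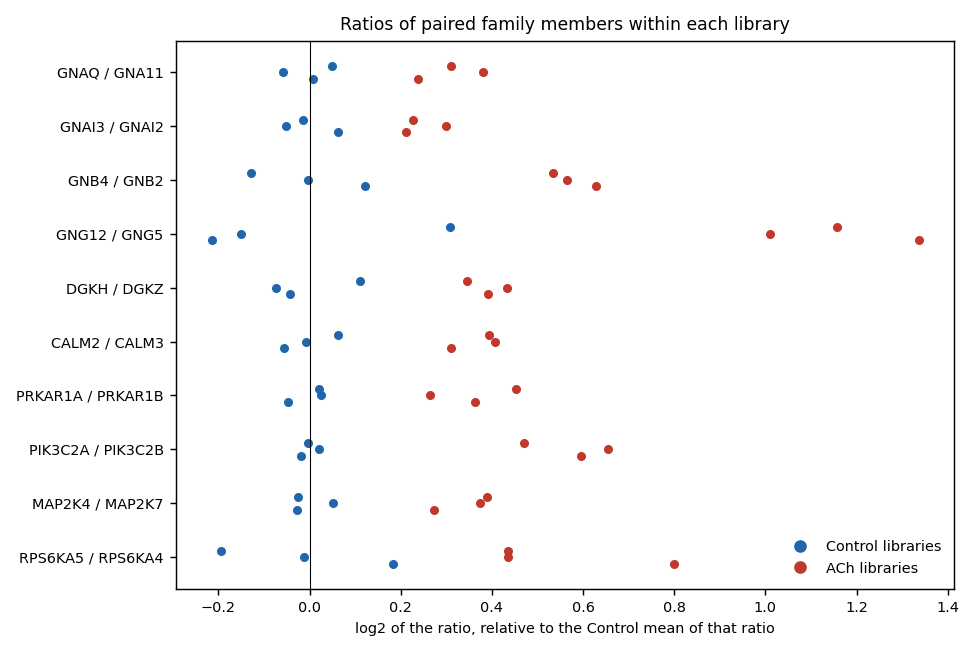
Ratio of 2 related genes within each library (x axis: log2 of the ratio relative to its mean in Control; blue: 3 Control libraries, red: 3 ACh libraries; 10 pairs). Red points lie to the right of blue points in each pair, farthest for GNG12 over GNG5, where the ratio changed 2.26-fold. The pairs and their order were chosen after the values were seen, and no GC trend was removed.

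Base composition separated the members that rose from those that fell. The 31 that rose had a median GC content of 44.98%, and the 19 with a value that fell had 57.4%. Over all listed genes the split was alike, with medians of 43.7% for those called higher and 56.9% for those called lower. Of the 21 members under 45% GC 20 had higher means in ACh, with GNG5 the one that was lower. All 17 members from 45% to 50% had higher means, and of the 8 from 50% to 55% 3 did, namely MAP4K4, PIK3R4 and PIK3IP1. None of the 25 members at or above 55% had a higher mean. Shares of all listed genes in these ranges were not computed. The Spearman correlation over the 71 members with a value was -0.67, against -0.76 over 3676 listed genes. Both are descriptions over genes that share the same 6 libraries. Gene length, which was not compared with GC content, also differed by direction. The deposited length had a median of 7850.0 bases for members that rose and 5058 for those that fell. It was 7130 and 4027 bases for all listed genes called higher and lower. All 10 members on chromosome 19, among them CALM3, GNA11, MAP2K2, MAP2K7, MAP3K10, AKT1S1, PRKCSH, AKT2 and PRKD2, had lower means in ACh, where 32 of the 406 listed genes there had higher ones.

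**Figure D4:**
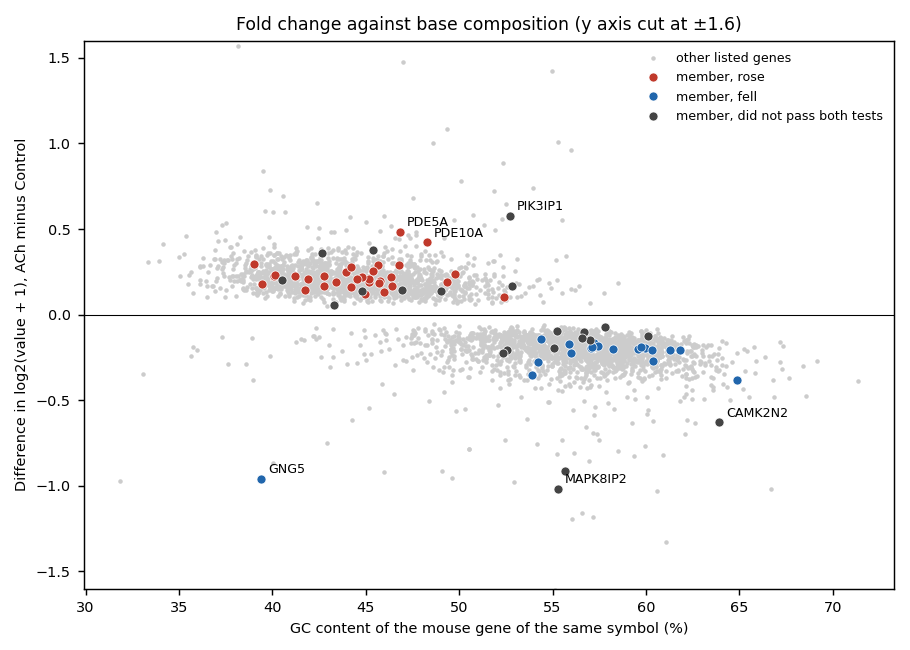
Log2 fold change against GC content (x axis: percent GC of the mouse gene sharing the symbol; y axis: difference of group means of log2(value + 1), ACh minus Control, drawn from -1.6 to 1.6; grey: other listed genes). Members below 50% GC lie above 0 except GNG5, and members at or above 55% lie below 0.

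Other genes of these routes, from lists that are no members, were listed in part. No muscarinic receptor gene of 5 was listed, and of 16 nicotinic subunit genes CHRNA10 alone was, at 27.6, 20.3 and 22.3 in Control and 2.14, 7.92 and 16.8 in ACh. It did not pass, since the authors' deposited table gives CHRNA10 an adjusted p of 1, which may stand for a missing value. CHRNA10 rests on few reads. Of 10 receptor kinase and arrestin names 3 were listed. GRK2 and GRK6, kinases that switch off G protein-coupled receptors, fell by 0.20 and 0.18 on the log2 scale, and GRK4, at -0.55, did not pass. Of 21 Ras, Raf and adaptor genes 9 were listed, of which 6 rose and 1 fell. BRAF and RASA1 rose by 0.27 and 0.23, HRAS fell by 0.26, and EGFR, at 0.066, did not pass. Of 12 genes for calcium entry and stores 5 were listed. The store-operated channel genes ORAI2 and ORAI1 fell by 0.25 and 0.19, ATP2B4, a calcium pump, rose by 0.12, and ATP2A2 and ATP2B1, at 0.06 and 0.14, did not pass.

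Of 14 CREB, NFAT and CRTC genes 5 were listed, and NFAT5 and CREB1 rose by 0.30 and 0.21 while CRTC1, CREBBP and NFATC3, at -0.20, -0.099 and 0.18, did not pass. RAP1A and RAP1B, small GTPases that also answer to cyclic AMP, were the 2 listed of 6 further cyclic AMP effectors and rose by 0.27 and 0.16. Of 7 genes of the arm below GNA13, ROCK2, ROCK1 and ARHGEF12 rose by 0.23, 0.17 and 0.16, and ARHGEF1 fell by 0.17. Of 14 MAP kinase effectors 4 were listed, RPS6KA3 among them. ELK4 rose by 0.19 and MKNK2 fell by 0.13, and ELK3, at 0.14, did not pass, nor did RPS6KA3. Of 18 genes below PI3K and AKT 8 were listed. RICTOR, INPP4B and GSK3B rose by 0.29, 0.21 and 0.16. MLST8, GSK3A and TSC2 fell by 0.23, 0.20 and 0.15, and RPTOR, at -0.13, did not pass.

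Of the genes in these lists named as rising or falling, ARHGEF12 kept its call with the GC trend removed, at 0.10, and MKNK2 passed in the opposite direction, at 0.12. The others named there lost their calls. CHRNA10, GRK4 and ATP2A2 had separate groups but had not passed both tests. With the GC trend removed they passed limma, at -1.44, -0.73 and 0.086. PTPN11, from the list of Ras, Raf and adaptor genes, rose by 0.13 and was singled out after its values were seen. PTPN11 kept its call at 0.21.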

How the data were processed

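Values were taken from 1 deposited table, with a signal value per gene and library, read counts that the authors divided by 1 factor per library. Within 0.01 of a step 100% of values in every library were whole multiples, so whole reads were recovered, although the Control libraries hold only 81 to 93 low values that test the step. The aligner named in the submitters' processing notes is Bowtie 0.12.2, with mouse builds, but 4183 of 4195 gene IDs are human Ensembl IDs. Which human build, annotation, strand setting and counter were used is not given in the sources used here. Coordinates and gene lengths, another measure in the deposited file, are printed as given. Per the file headers, the log2 and p-value columns come from the authors' test. Every row has p under 0.05, and 4 members have a deposited adjusted p of exactly 1. PIK3IP1 is among them with an unadjusted p of 0.0227 in the authors' test. AKT2, at 0.0238 in that test, has an adjusted p of 0.0823. The 1 thus does not follow the order of the p-values and may stand for a missing value.

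All rows were fitted with limma 3.58.1 (trend, R 4.3.3) on log2(value + 1), with group as the only term, no filter and Benjamini-Hochberg adjustment over the table. Fold changes are on that scale, which understates changes of low genes. The adjustment covers only rows selected by p in the same libraries, so it does not give a false discovery rate. GC content came from the longest protein-coding GENCODE M21 transcript of the mouse gene sharing the symbol (3676 of 4195 rows and 71 of 72 members, 98.6%). Its trend was removed per library by local regression (span 0.3) over these rows, since unlisted genes had no values. The edgeR 4.0.16 quasi-likelihood test on recovered reads was an alternative. It called 70 members before the authors' adjusted p was applied and the 51 of the main test with it.

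Members and lists were chosen with earlier results of these data known. Values in every library are given for up to 3 rises and 3 falls per step among called members and for the listed Gq, Gi and Gs alpha, phospholipase C beta, protein kinase A subunit, MAP2K2 and DUSP6 members. Some genes that count in the totals are not reported here by name. Up to 2 genes per direction are named from each list. ADCY1, AKT2, CAMK2N2, CHRNA10, MAP4K4, MAPK8IP2, PIK3IP1 and PIK3R4 were added after their values were seen, as were list genes named as not passing, GSK3B, TSC2, KRT15, KRT18, ARHGEF12 and the pairs. Python 3.11.15, pandas 2.3.3, NumPy 2.4.6 and Matplotlib 3.10.9 were used.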

Additional observations from a re-analysis of the deposited data

How the results depend on the processing

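The counts of 31 rises and 20 falls among the members were the same with a pseudocount of 0.1, the replicate block (1207 and 1470 listed genes, as without it), each of the 6 libraries left out in turn, edgeR on recovered reads and edgeR with TMM scaling. A call in each of these fits also required the authors' deposited adjusted p, which was held fixed. Limma alone passed 70 of the 72 members, so these counts could hardly change. Leaving out 1 library gave 1192 to 1205 higher and 1453 to 1465 lower listed genes. Without the genes of lowest values the member counts were 28 and 18, since fewer genes were tested. With equal totals over the listed genes they were 31 and 17, against 1207 and 990 listed genes. MAP2K3, GNA11 and PRKAR1B then lost their calls, and GNAS moved from -0.075 to 0.0053. Limma alone gave 39 and 31 members, and 2014 and 2164 listed genes. With the GC trend removed 4 and 1 members passed both tests, against 180 and 214 listed genes. With the replicate block added, chosen after seeing the data, the counts were 5 and 3, against 259 and 263 listed genes, the additions being MAP3K1, DGKQ and PIK3C2B. The genes with a GC value gave 31 and 19 members without removal. The GC trend's removal reversed the log2 change of 30 members reported by name, with and without the block. ADCY3 at 0.061, AKT1 at 0.057, AKT1S1 at 0.069, AKT2 at 0.077, CALM3 at 0.027, DGKZ at 0.039, GNA11 at 0.046, GNAI2 at 0.099, GNB2 at 0.049, MAP2K3 at 0.016, MAP3K11 at 0.064, PLCB3 at 0.015, PLCD3 at 0.12, PRKAR1B at 0.012, PRKCSH at 0.033, PRKD2 at 0.021, RPS6KA4 at 0.048 and SPRYD3 at 0.063 became higher, with GNAS at 0.15, and AKAP10 at -0.041, AKAP11 at -3.42e-05, AKAP9 at -0.045, CALM2 at -0.035, DGKH at -0.0094, GNAI3 at -0.067, GNAQ at -0.0087, MAP2K4 at -0.066, MAP3K2 at -0.052, PRKDC at -0.14 and RPS6KA3 at -0.017 became lower. Of these, GNAS, PLCD3 and PRKDC passed limma after removal without the block, and GNAI2 as well with it. The other reversed values did not pass. The cause of the reversals was not tested.

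Same-numbered libraries deviated from their group means with r of 0.082, 0.056 and 0.047 over 4195 genes, and with 0.17, 0.15 and 0.35 over the upper 2098 by mean. Over all genes no pair reached 0.1, so the numbers were not taken to pair the libraries. Each library correlated best with its own number in both sets. The replicate block changed no call of a member in the fit without GC removal, where the authors' adjusted p was held fixed. After GC removal 10 members passed limma as higher and 5 as lower with the block, against 8 and 3 without it. GNAI2, lower in its deposited mean, then passed as higher at 0.099 (limma adjusted p = 0.027). Members under 100 normalised reads (MAPK8IP2, CAMK2N2, PIK3IP1) are limited by depth.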
